A study of Homo sapiens with 6 samples.

Results

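The transcripts of 9 complement components and regulators were followed in 786-O cells, a human line derived from a clear cell renal carcinoma, after vehicle or the compound XMU_MP_1. The members were chosen by name as the rows for C3, CFB, CFI, C1R, C1S, SERPING1, CD46, CD55 and CD59, and all 9 were among the 17114 gene symbols listed. The cells had been plated in 12-well plates, and 3 Vehicle libraries and 3 XMU_MP_1 libraries were sequenced from total RNA. XMU-MP-1 is an inhibitor of the kinases MST1 and MST2, which act at the top of the Hippo pathway. The labels call the exposure a transfection and give no dose or time. All 6 libraries come from the same line, and whether the replicates were separate cultures is not given in the sources used here, so their spread may be technical.

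Complement is a cascade of plasma and cell-surface proteins that marks cells and microbes for removal or lyses them. It is started by the C1 proteases C1r and C1s (the classical pathway), by mannose-binding lectin, or by the alternative pathway, which needs factor B, and all of these routes converge on cleavage of C3. Host cells are protected by soluble inhibitors, such as factor I and the C1 inhibitor encoded by SERPING1, and by the membrane proteins CD46, CD55 and CD59. The liver makes most plasma complement, but kidney tubule cells and many tumour cells also transcribe some of these genes.

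In these cells the transcripts of the membrane regulators were abundant, C3 was at an intermediate level, and the other 5 members were below 0.4 FPKM. C3 was lower with XMU_MP_1 by 1.55-fold, whereas CD46, CD55 and CD59 did not pass the test. Levels are in FPKM, that is, sequenced fragments divided by transcript length and by the library's total, so that levels of different genes can be compared per length. Means are given ± SD over the 3 libraries of a group. A gene was tested if it averaged at least 1 FPKM over the 6 libraries, which 4 of the 9 members did. Changes are differences of log2(FPKM + 1), XMU_MP_1 minus Vehicle, a scale that understates the change of low genes. They were tested with limma across all 11151 such genes with Benjamini-Hochberg adjustment at 0.05. Of the 4 tested members 1 passed as lower and 0 as higher, against 57.9% of all tested genes that passed in either direction, 25.9% as lower and 32.0% as higher. At an unadjusted p below 0.05 the counts of members were also 1 lower and 0 higher. The median log2 change of the 4 was 0.05, and that of all tested genes 0.04. Vehicle and XMU_MP_1 values did not overlap for 2 of the 4, C3 and CD59, against 63.7% of all tested genes.

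**Figure D1:**
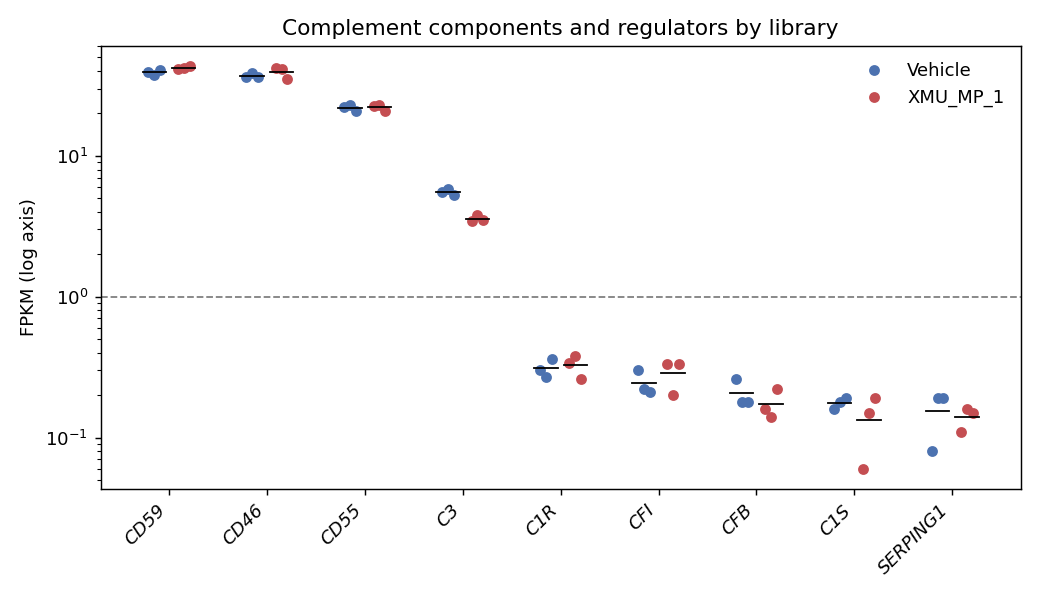
FPKM of the 9 members on a log axis, 1 point per library (blue, Vehicle, and red, XMU_MP_1), with horizontal bars for group means and a dashed line at 1 FPKM, the mean needed for a test. CD59, CD46 and CD55 lie between 20.67 and 43.42 FPKM, C3 between 3.43 and 5.81, and the other 5 members at or below 0.38, and of the 4 genes above the line C3 shows the widest step between groups.

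C3, on which all complement pathways converge, fell in the treated cells. Its level was 5.58, 5.81 and 5.25 FPKM in Vehicle replicates 1 to 3 and 3.43, 3.82 and 3.49 FPKM in XMU_MP_1 replicates 1 to 3. Every treated library was thus below every vehicle library, and the libraries within a group were close together. The means were 5.55 ± 0.281 and 3.58 ± 0.21 FPKM, which gives a log2 change of -0.52 ± 0.069 (SE; 95% interval -0.67 to -0.36; limma adjusted p = 9.72e-05). Among all tested genes, 9.31% had a lower log2 change and 16.6% a larger change in either direction. In rank terms, 52.3% to 53.6% of all listed genes were below C3 in the vehicle libraries and 45.9% to 47.3% in the treated ones. The fall did not pass when tested against a minimum fold of 1.5, which 5.50% of the tested genes did in either direction. That minimum applies to FPKM + 1. On this scale the estimate for C3 was itself smaller than 1.5-fold, so it could not pass. In bulk RNA, fewer cells that express a gene and less RNA per cell cannot be told apart.

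C3 lies on chromosome 19 (6677704 to 6730562, minus strand, GRCh38, GENCODE 29), where its annotated span shares 649 bases with GPR108 on the same strand. How reads in shared stretches were assigned is not given in the sources used here. GPR108 itself was at 26.2 ± 1.1 FPKM with vehicle and 28.2 ± 2.27 FPKM with XMU_MP_1 and did not pass (limma adjusted p = 0.202). Its estimated change was thus upward, while that of C3 was downward.

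The transcripts of the membrane regulators were at a much higher level than that of C3. CD46 is a cofactor for the cleavage of deposited C3 and C4 fragments by factor I. It stood at 36.02, 38.83 and 36.36 FPKM with vehicle and at 42.32, 41.69 and 35.02 FPKM with XMU_MP_1. XMU_MP_1 replicate 3 was the lowest of all 6 and the other treated libraries were the highest, so the groups overlapped. The means were 37.1 ± 1.53 and 39.7 ± 4.05 FPKM, with a log2 change of 0.09 ± 0.073 (SE; 95% interval -0.07 to 0.25; limma adjusted p = 0.303). The call rests on that library: without XMU_MP_1 replicate 3 the log2 change was 0.177 (limma adjusted p = 0.0153), and without Vehicle replicate 2 as well it was 0.21 (limma adjusted p = 9.80e-04).

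CD55, or decay-accelerating factor, dissociates the convertases that cleave C3 and C5. It measured 22.41, 22.84 and 20.85 FPKM with vehicle and 22.64, 23.08 and 20.67 FPKM with XMU_MP_1. The groups covered nearly the same range, 22.0 ± 1.05 against 22.1 ± 1.28 FPKM. The log2 change was 0.006 ± 0.061 (SE; limma adjusted p = 0.944), with a 95% interval of -0.13 to 0.14, which corresponds to 0.915-fold to 1.10-fold of FPKM + 1. Of all tested genes 98.6% had a larger absolute change.

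CD59, a lipid-anchored protein that blocks the final assembly of the membrane attack complex, was at 39.16, 37.7 and 40.4 FPKM with vehicle and 41.68, 41.76 and 43.42 FPKM with XMU_MP_1. The treated libraries were all above the vehicle libraries, but by little, with means of 39.1 ± 1.35 and 42.3 ± 0.982 FPKM. The log2 change of 0.11 ± 0.050 did not pass (SE; 95% interval -8.4e-05 to 0.22; limma adjusted p = 0.0803), and it stayed short of the threshold in all the alternatives run. A rise of the size estimated for CD59 or CD46 was exceeded in absolute size by 72.9% and 77.4% of the tested genes.

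**Figure D2:**
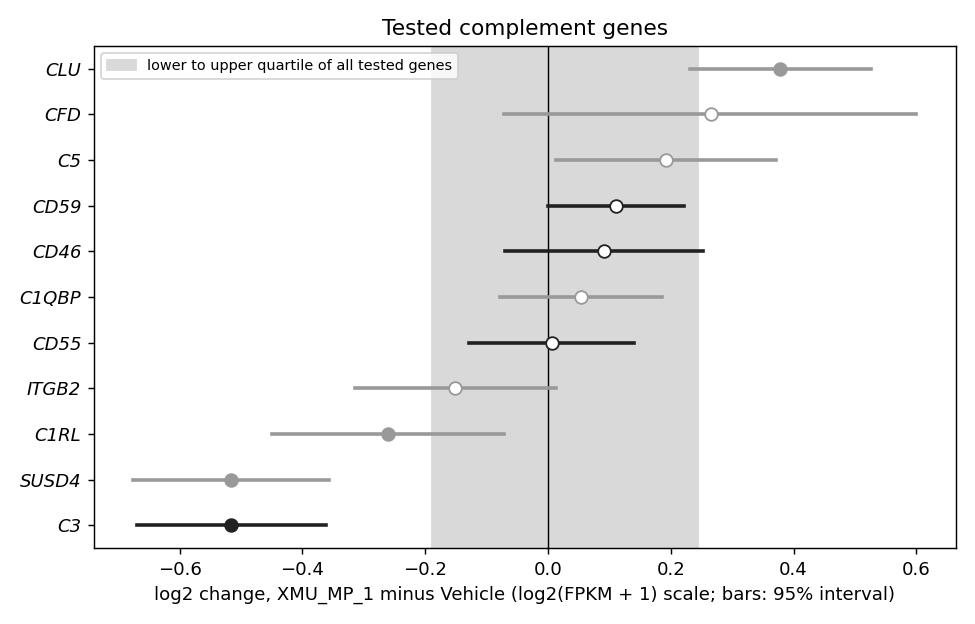
Log2 change (XMU_MP_1 minus Vehicle, on the log2(FPKM + 1) scale) of the 4 tested members (black) and the 7 tested genes among the other complement genes (grey), with 95% intervals that are not adjusted for the number of genes. Filled points passed at an adjusted p below 0.05, and the shaded band runs from the lower quartile (-0.189) to the upper quartile (0.244) of all tested genes. C3 lies left of the band with an interval that does not reach it, while CD46, CD55 and CD59 lie inside it.

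The ratio of C3 to the membrane regulators, a quantity within each library that scaling to the library total cannot alter, was lower in every treated library. There were 24.9, 25.4 and 25.2 FPKM of C3 per 100 FPKM of CD55 in the vehicle libraries and 15.2, 16.6 and 16.9 in the treated ones. Per 100 FPKM of CD46 the ratio was 14.4 to 15.5 with vehicle and 8.1 to 9.97 with XMU_MP_1, and per 100 FPKM of CD59 it was 13 to 15.4 and 8.04 to 9.15. The groups were apart for each of these ratios, which all reuse the C3 values given above and are not separate evidence of its fall. The ratios among the regulators themselves were not: CD46 over CD55 ran from 1.61 to 1.74 with vehicle and from 1.69 to 1.87 with XMU_MP_1, and CD59 over CD46 from 0.971 to 1.11 and from 0.985 to 1.24. The ratios are descriptions and were not tested. Summed over CD46, CD55 and CD59, the level was 97.6 to 99.4 FPKM with vehicle and 99.1 to 107 FPKM with XMU_MP_1.

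**Figure D3:**
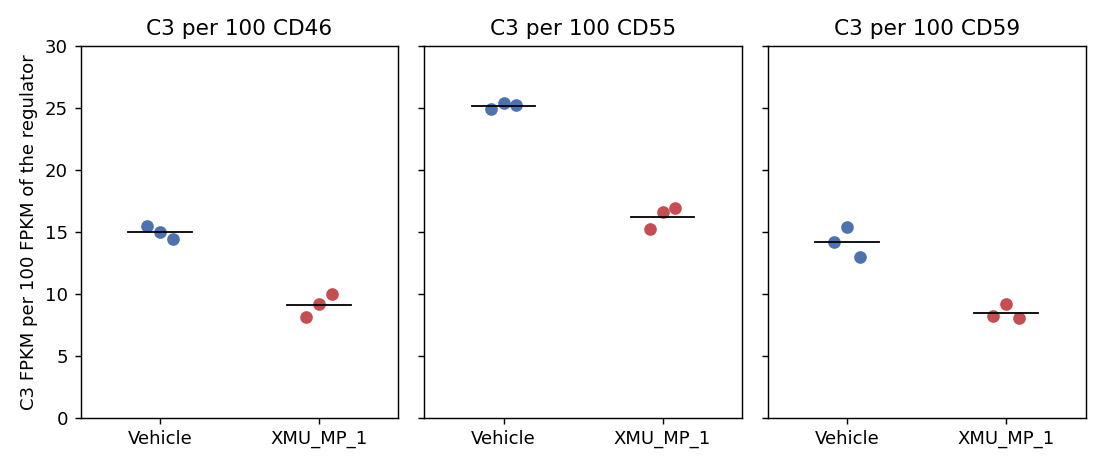
C3 FPKM per 100 FPKM of CD46, CD55 or CD59, from 0, with 1 point per library and a bar at the group mean. In each panel the 3 XMU_MP_1 libraries lie below the 3 Vehicle libraries, most tightly grouped for CD55, where the vehicle libraries lie between 24.9 and 25.4.

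The early classical and alternative pathway genes were at low levels in both groups. C1R and C1S encode the proteases of the C1 complex. C1R measured 0.3, 0.27 and 0.36 FPKM with vehicle and 0.34, 0.38 and 0.26 with XMU_MP_1. C1S measured 0.16, 0.18 and 0.19 FPKM with vehicle and 0.06, 0.15 and 0.19 with XMU_MP_1. For both genes the groups overlapped, and the lowest C1S value was in XMU_MP_1 replicate 1. CFB, which encodes factor B, the protease component of the alternative pathway convertase, was at 0.26, 0.18 and 0.18 FPKM against 0.16, 0.14 and 0.22.

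The soluble inhibitors were as low. CFI, which encodes the protease that inactivates C3 fragments with CD46 as cofactor, stood at 0.3, 0.22 and 0.21 FPKM with vehicle and 0.33, 0.2 and 0.33 with XMU_MP_1. SERPING1, the gene of the inhibitor of C1r and C1s, stood at 0.08, 0.19 and 0.19 FPKM against 0.11, 0.16 and 0.15. All 5 of these members had overlapping groups and averaged 0.147 to 0.318 FPKM over the 6 libraries, too low to be tested. Together they summed to 1.04 to 1.13 FPKM with vehicle and 1.00 to 1.15 FPKM with XMU_MP_1. The deposited values carry 2 decimals, and the depth behind them is unknown. With no filter on low values, none of the 5 passed in either direction. Of all 17077 genes then tested, 3543 passed as higher and 3271 (19.2%) as lower. The log2 changes of the 5 ran from -0.0557 to 0.0485, a narrow range on a scale that understates changes at such levels.

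The order of the levels was the same for the abundant members in both groups. CD59 and CD46 were the highest and overlapped each other in either group. CD55 lay below both and C3 below CD55, with no overlap between these neighbours. Below C3 there was a gap of about an order of magnitude, and C1R, CFI, CFB, C1S and SERPING1, in the order of their means over the 6 libraries, each overlapped the next. CD59 and CD46 exceeded 85.8% to 88.3% of all listed genes in every library, whereas the 5 low members exceeded 16.9% to 29.4%.

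Promoter windows from RefSeq (GRCh38.p14, 250 bases before to 50 after a transcription start) were matched for 6 of the 9 members, with 11 windows in all. C3, C1S and SERPING1 were not matched. Windows of 2 low members and of 2 abundant regulators are shown, since they set sequences of genes with very different transcript levels side by side. The levels are per gene, so the level from each start is not known. Capitals mark matches, on either strand, to motifs of factors that the study's title names or that are known to act on complement genes: an NF-κB consensus, the TEAD motif CATTCC, the core of interferon-stimulated response elements (GAAA and again GAAA after 2 bases of any kind), the STAT motif TTCNNNGAA (GAS), the C/EBP motifs TTGCGCAA and TTNNGCAA, which overlap in letters, and the AP-1 motif TGAGTCA. The windows are CFB (chr6:31945845-31946144, plus strand), the first of 2 windows of C1R (chr12:7092396-7092695, minus strand), CD55 (chr1:207321428-207321727, plus strand) and the first of 4 windows of CD59 (chr11:33736430-33736729, minus strand), each written 5′ to 3′ on the gene's strand.
CFB: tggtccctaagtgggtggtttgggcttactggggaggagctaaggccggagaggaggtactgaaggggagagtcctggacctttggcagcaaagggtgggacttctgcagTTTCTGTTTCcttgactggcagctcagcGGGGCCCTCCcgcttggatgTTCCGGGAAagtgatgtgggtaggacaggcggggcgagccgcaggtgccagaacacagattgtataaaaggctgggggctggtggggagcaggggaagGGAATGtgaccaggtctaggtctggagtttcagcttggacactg
C1R: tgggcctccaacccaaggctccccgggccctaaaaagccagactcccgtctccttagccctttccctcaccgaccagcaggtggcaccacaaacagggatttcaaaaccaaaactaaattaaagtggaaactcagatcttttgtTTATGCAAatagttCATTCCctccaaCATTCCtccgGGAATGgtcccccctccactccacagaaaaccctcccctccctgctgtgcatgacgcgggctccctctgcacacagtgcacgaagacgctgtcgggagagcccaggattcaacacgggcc
CD55: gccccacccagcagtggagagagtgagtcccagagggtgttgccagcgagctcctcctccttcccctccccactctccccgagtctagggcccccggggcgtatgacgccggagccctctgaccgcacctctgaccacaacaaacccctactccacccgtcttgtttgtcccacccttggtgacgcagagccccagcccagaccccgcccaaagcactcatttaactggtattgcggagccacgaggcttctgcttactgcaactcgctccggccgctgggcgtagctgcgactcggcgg
CD59: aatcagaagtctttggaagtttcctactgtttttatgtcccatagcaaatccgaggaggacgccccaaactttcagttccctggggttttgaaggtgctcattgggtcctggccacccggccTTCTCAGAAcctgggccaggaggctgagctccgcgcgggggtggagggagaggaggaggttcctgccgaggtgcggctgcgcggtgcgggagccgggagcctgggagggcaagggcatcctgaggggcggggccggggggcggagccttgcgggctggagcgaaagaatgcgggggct

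The CFB window held a match to the NF-κB consensus at base 139 (counted from 1 at the 5′ end of the window), to the interferon core at base 111, to GAS at base 159 and to the TEAD motif at base 257. The C1R window shown held 3 TEAD matches, at bases 159, 171 and 181, and a C/EBP match at base 145. The second C1R window held no TEAD match, but GAS at base 165 and a C/EBP match at base 84. Of 35116 promoter windows in the RefSeq table, 14.0% held the TEAD motif, 11.3% the NF-κB consensus, 7.66% GAS, 3.57% the interferon core, 10.5% the C/EBP motif TTNNGCAA, 0.151% TTGCGCAA and 4.95% the AP-1 motif. The CD55 window and both CD46 windows held none of these letters, and the CD59 window shown held GAS at base 123. Among windows not shown, that of CFI, also a low member, held none. Window 2 of CD59, which overlaps the one shown, held the same GAS match, there at base 67. Window 3 of CD59 held 2 matches to TTNNGCAA and window 4 held 2 to the AP-1 motif. A match is only a description of the letters in the window, and no binding was measured here.

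Several members lie beside other complement genes. Levels of some neighbours on the same stretch differed widely, whereas C1R and C1S, and CFB and C2, were all low. On chromosome 1, in the cluster of regulators of complement activation, CD55 (207321376 to 207386804) and CD46 (207752057 to 207795513) are 365 kb apart on the plus strand with CR2, CR1 and CR1L between them. CR1, which encodes a receptor for C3 fragments on blood cells, was at 0.03 to 0.07 FPKM with vehicle and 0.02 to 0.03 with XMU_MP_1. C4BPA and C4BPB, the genes of the soluble C4b-binding protein, lie on the other side of CD55. C4BPA was listed at 0 in 5 of 6 libraries, and C4BPB was at 0.597 ± 0.133 and 0.75 ± 0.139 FPKM.

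On chromosome 12, C1S (6988259 to 7071032, plus strand) and C1R (7080199 to 7092607, minus strand) lie 9.17 kb apart. C1RL, a C1r-like protease gene whose span shares 3021 bases with C1R on the same strand, was higher than both. It went from 3.08 ± 0.345 to 2.40 ± 0.242 FPKM (log2 change -0.26 ± 0.085, limma adjusted p = 0.0223), without overlap. It did not pass without Vehicle replicate 2 (adjusted p = 0.0812), without XMU_MP_1 replicate 3 (adjusted p = 0.0703) or without both (limma adjusted p = 0.135, log2 change -0.134). The annotated span of C1S also shares stretches with EMG1 and LPCAT3, and whether the counting used strand is not given in the sources used here. On chromosome 6, in the major histocompatibility region, CFB (31945650 to 31952084) shares 23 bases with C2, which encodes the classical pathway counterpart of factor B and was at 0.187 ± 0.085 and 0.287 ± 0.0289 FPKM. The remaining members are CFI on chromosome 4 (109740694 to 109802179) and CD59 (33703010 to 33736491) and SERPING1 (57597387 to 57614853) on chromosome 11. CFB, CFI and CD59 each share bases with a further protein-coding model on the same strand, AL645922.1, AC126283.2 and AL049629.2, which are not analysed here.

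**Figure D4:**
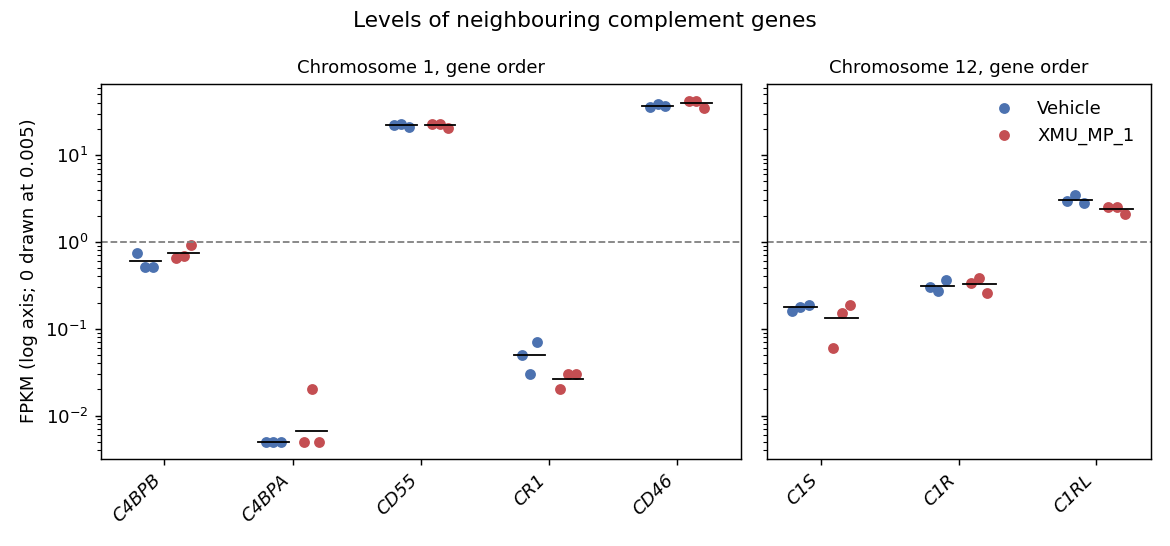
FPKM on a log axis of complement genes in their order along chromosomes 1 and 12, with 1 point per library (blue, Vehicle, and red, XMU_MP_1), bars at group means, values of 0 drawn at 0.005 and a dashed line at 1 FPKM. CD55 and CD46 lie above 20 FPKM beside CR1 and C4BPA at or below 0.07, and C1RL lies above 2 FPKM beside C1R and C1S at or below 0.38.

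The other genes of the complement system were mostly low too. Of 51 listed, 37 were in the files and 7 were tested. The other 14, among them the C1q chain genes, are not analysed here. Of the 7 tested, 1 passed as higher and 2 as lower, C1RL above and SUSD4, against 32.0% and 25.9% of all tested genes. Their median log2 change was 0.05. CLU, which encodes clusterin, a secreted chaperone that also inhibits the membrane attack complex, rose from 12.7 ± 0.321 to 16.9 ± 1.44 FPKM (log2 change 0.38 ± 0.067, limma adjusted p = 6.34e-04). SUSD4, which encodes a membrane protein with complement control modules, fell from 2.38 ± 0.186 to 1.36 ± 0.0755 FPKM (log2 change -0.52 ± 0.072, limma adjusted p = 1.35e-04). The groups did not overlap for either gene.

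The other 4 tested genes did not pass. C1QBP, a mostly mitochondrial protein that can bind C1q, was the most abundant gene of the list at 188 ± 11.9 and 195 ± 2.49 FPKM (log2 change 0.05, limma adjusted p = 0.458). CFD, which encodes factor D, the protease that activates factor B, was at 1.88 ± 0.423 and 2.50 ± 0.763 FPKM (adjusted p = 0.159). Its log2 change of 0.265 went to 0.439 without XMU_MP_1 replicate 1 (limma adjusted p = 0.0162) and to 0.117 without XMU_MP_1 replicate 3. Without that library and Vehicle replicate 2 it was 0.0163. It also passed in the fit with a replicate block (limma adjusted p = 0.0357) and with close pairs averaged (0.393, limma adjusted p = 0.0449). C5, the component cleaved to start the membrane attack complex, was at 0.923 ± 0.0862 and 1.20 ± 0.175 FPKM (adjusted p = 0.0635), so that only its treated group averaged over 1 FPKM. Its log2 change was 0.192, and it passed without XMU_MP_1 replicate 3 (0.248, limma adjusted p = 0.0282), with quantile normalization (0.301, adjusted p = 0.00821) and without trend and robust moderation (limma adjusted p = 0.0431). Without Vehicle replicate 2 and XMU_MP_1 replicate 3 the change was 0.255 (limma adjusted p = 0.038). ITGB2, an integrin chain of complement receptors on leukocytes, was at 1.25 ± 0.0987 and 1.03 ± 0.0964 FPKM (log2 change -0.15, adjusted p = 0.103). It passed as lower with equal medians (-0.181, limma adjusted p = 0.0453), and its change was -0.0562 with quantile normalization.

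The genes with a pattern most like that of C3 across the 6 libraries were found by the distance between log2(FPKM + 1) values, each gene centred on its own mean. ADAMTS3, a procollagen-processing protease gene, was the nearest with a distance of 0.0422, against a median of 0.742 over all other tested genes. It went from 3.27 ± 0.193 to 1.98 ± 0.167 FPKM. PLEKHG2, a guanine nucleotide exchange factor gene, MAP4K4, a kinase gene, INPPL1, a lipid phosphatase gene, and ABCC9, a potassium channel subunit gene, followed with distances of 0.0571 to 0.0642. The log2 changes of these 5 genes ran from -0.53 to -0.49. ABCC9 averaged over 1 FPKM in the vehicle group only (1.42 ± 0.0306 against 0.71 ± 0.0794 FPKM). The measure is a description over 6 libraries in 2 groups, and it is dominated by the step between the groups.

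Markers of cell identity were checked in the same tables. Of 8 marker genes of the renal carcinoma line 7 averaged at least 1 FPKM, led by VIM, and the kidney factor gene PAX8 was at 112.5 to 132.8 FPKM, whereas CA9 did not exceed 0.26. Of 6 hepatocyte markers in the files SERPINA1 alone averaged at least 1 FPKM. It was also lower with XMU_MP_1, at 150.3 ± 10.7 against 192.3 ± 4.85 FPKM (limma adjusted p = 5.69e-04), while ALB was at 0 to 0.02. The summed level of this list was 187.7 to 197.4 FPKM with vehicle and 144.1 to 162.7 with XMU_MP_1. Of 7 macrophage markers CD68 and CSF1R averaged at least 1 FPKM, CD163 did not exceed 0.01, and the sum, most of it CD68, was 34.6 to 36.4 FPKM with vehicle and 32.8 to 34.0 with XMU_MP_1. CSF1R fell from 2.36 ± 0.038 to 0.82 ± 0.125 FPKM (log2 change -0.89, limma adjusted p = 3.2e-06), and CD68 did not pass. Only the vehicle group of CSF1R averaged over 1 FPKM. Endothelial (5 genes), fibroblast (6 genes) and blood cell or platelet (2 genes) markers all averaged under 1 FPKM. Their sums were 0.53 to 0.62, 1.46 to 1.72 and 0 to 0.24 FPKM with vehicle and 0.1 to 0.19, 0.78 to 1.65 and 0 to 0.1 with XMU_MP_1. The part of these markers in the C3 result was not tested. Log2 differences between libraries over 3950 genes with at least 20 FPKM had an SD of 0.0718 to 0.158 within groups and 0.377 to 0.452 between groups. Vehicle replicate 2 and XMU_MP_1 replicate 3 stood apart from the closer pair of their own group, and without both of them C3 was still lower (log2 change -0.473, limma adjusted p = 3.16e-04).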

How the data were processed

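Per the labels' protocols, RNA was isolated with Trizol and made into libraries for the BGISEQ-500 sequencer. The authors deposited FPKM per gene symbol in 1 table per library, to 2 decimals, per the file headers. The submitters' processing notes name the build GRCh38. The aligner, quantifier, annotation and filters used are not stated in these sources. Summed FPKM ran from 454889 to 527709 and are not depths. All 50 steps of 0.01 up to 0.5 FPKM occur in every library, so no value of a single read was recovered, and depth is unknown.

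Groups and replicate numbers came from the sample titles. limma (version 3.58.1, statmod 1.5.0, R 4.3.3) was fitted to log2(FPKM + 1) of the 11151 genes that averaged 1 FPKM or more. Group was the only term, with a mean-variance trend, robust moderation, two-sided p-values and Benjamini-Hochberg adjustment at 0.05. Intervals are 95% intervals from the moderated fit. Data of 11151 genes were simulated with 200 of them changed. Changes by log2 0.25, 0.5 and 1 were recovered in 24.4%, 77.4% and 98.2% of cases, and 4.32% of calls were false. In the real data 57.9% of the tested genes passed, a far larger share, so these rates need not hold there. Alternatives changed the pseudocount, filter, scaling, moderation, block, libraries and minimum fold. The rule for named genes takes all 9 members, genes of a list of other complement genes and the 5 genes nearest to the tested member with the largest change. Members and lists were chosen with earlier results of these data known. Gene positions are those of GENCODE 29, and promoters were searched with Python 3.11.15.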

Additional observations from a re-analysis of the deposited data

How the results depend on the processing

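The fall of C3 kept its direction and passed in all the alternatives run except a test against a minimum fold of 1.5 (log2 change -0.516, limma adjusted p = 1). Its estimate was smaller than that fold on the scale of FPKM + 1. With a mean of at least 5 FPKM required, C3 is not among the tested genes, so 0 members passed as lower. With the minimum fold also 0 members passed as lower. Leaving out 1 library at a time gave log2 changes of -0.553 to -0.487 for C3, 0.0435 to 0.177 for CD46, -0.032 to 0.0518 for CD55 and 0.086 to 0.135 for CD59. The estimate for CD55 was also below 0 with equal medians, quantile normalization and averaged close pairs, without passing. The number of members passing as higher was 0 to 1 and as lower 1 in all 6 of these fits. CD46 passed as higher without XMU_MP_1 replicate 3 and without it and Vehicle replicate 2 together (log2 change 0.21, 1 member higher), and the cause was not tested. Of the other complement genes 1 to 2 passed as higher and 1 to 2 as lower when 1 library was left out. Without Vehicle replicate 2 and XMU_MP_1 replicate 3 together, 2 passed as higher and 1 as lower. As higher, 2 passed with quantile normalization, without trend and robust moderation, with the replicate block and with close pairs averaged (CFD is the gene added by the block and the averaging, and C5 by the other settings). With the minimum fold 0 passed as higher and 0 as lower, and with a mean of at least 5 FPKM 0 as lower. With equal medians 3 passed as lower, ITGB2 being the added one. With no filter 4 of 36 passed as lower, against 19.2% of all 17077 genes then tested, the added ones being C3AR1 and MBL2, named after their values were seen. The replicate numbers are shared between groups, and whether same-numbered libraries were paired is not given in the sources used here. Deviations of same-numbered libraries correlated at -0.204, 0.392 and 0.244, and Vehicle replicate 1 correlated best with XMU_MP_1 replicate 3 (0.344). With the replicate block C3 had a log2 change of -0.516 (limma adjusted p = 1.3e-05), CD46, CD55 and CD59 did not pass, and 3956 genes were higher and 3093 lower, against 3567 and 2886 without it. Depth is unknown, which limits statements on the 5 low members.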

Other observations

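Genes of receptors for complement fragments were low in both groups. C3AR1, which encodes the receptor for the small fragment released from C3, was at 0.4, 0.53 and 0.34 FPKM with vehicle and 0.14, 0.06 and 0.11 FPKM with XMU_MP_1. The groups did not overlap, and the means were 0.423 ± 0.0971 and 0.103 ± 0.0404 FPKM. Its mean over all libraries is under 1 FPKM, so it was not tested in the main comparison. In the fit with no filter on low values it passed as lower (log2 change -0.366, limma adjusted p = 0.00136), and it is named here after its values were seen. The genes of the receptors for the matching fragment of C5 overlapped between groups, C5AR1 at 0.0967 ± 0.0231 and 0.0467 ± 0.0404 FPKM and C5AR2 at 0.72 ± 0.106 and 0.677 ± 0.0289 FPKM. ITGAM and ITGAX, integrin chains that pair with the product of ITGB2 to form complement receptors, were at or below 0.17 FPKM in every library. With no filter C5AR1, C5AR2, CR1, ITGAM, ITGAX, ITGB2 and CD93 did not pass, whereas 3543 of 17077 genes passed as higher and 3271 as lower. All of these but ITGB2 averaged under 1 FPKM, where the scale understates changes, so the result does not show that they were unchanged.

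MBL2, which encodes mannose-binding lectin, the starter of the lectin pathway, was at 0.25, 0.21 and 0.15 FPKM with vehicle and 0.1, 0.11 and 0.09 FPKM with XMU_MP_1, without overlap. It passed as lower with no filter (log2 change -0.129, limma adjusted p = 0.0215). MASP2, the gene of its protease partner, was at 0.363 ± 0.0208 and 0.36 ± 0.0854 FPKM. Of the 30 other complement genes in the files that were not tested, 4 had groups without overlap. C3AR1 and MBL2 were lower with XMU_MP_1, whereas C2 and C7 were higher. C7 was at 0.02 ± 0.0173 and 0.0633 ± 0.0115 FPKM. With no filter neither C2 nor C7 passed (limma adjusted p = 0.123 and 0.064). The share of all untested genes without overlap was not computed, so the count of 4 has nothing to be set against and is only a description.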
